A study of Mus musculus with 27 samples.

Results

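The microRNA profile of mouse embryonic stem (ES) cells lacking Eed was compared with that of wild-type ES cells over every mature microRNA locus with at least 10 counts in either of the 2 genotypes. This rule kept 1096 of the 2035 annotated loci, which carry 977 of 1900 mature names. Wild-type cells were of the CJ7 line and mutant cells carried the Eed-/- genotype, with the strain given as CJ7 for both. Both were grown in serum medium with leukemia inhibitory factor, which keeps ES cells undifferentiated, and the labels name no treatment. Of the 27 samples of the series, 7 are small RNA samples: 2 of wild-type, 2 of Eed-/-, 2 of Ezh2-/- and 1 of Jarid2-/- cells. Their deposited values form 1 column per genotype, so differences could not be checked on replicates and none was tested. Whether a column pools the replicates, and whether the mutant line is a single clone, is not given in the sources used here. Messenger RNA of Eed, which would check the genotype label, was not analysed here.

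Eed is a core subunit of Polycomb repressive complex 2 (PRC2), which methylates histone H3 at silent genes. Eed binds the methylated histone and is needed for the activity of the catalytic subunit Ezh2. Jarid2 is a partner protein that takes part in its recruitment to chromatin. A microRNA is cut from a hairpin precursor whose 5p and 3p arms can both give a mature RNA of about the same length, usually with 1 arm far more abundant. The seed, bases 2 to 8 of the mature sequence, is the main determinant of which messenger RNAs it pairs with, so microRNAs with the same seed form a family. In mouse ES cells most microRNA molecules come from the miR-290 cluster and the miR-17 family clusters. The imprinted Gtl2-Rian-Mirg region, named in the title of the series, produces maternally expressed noncoding transcripts with many microRNA hairpins.

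Mature sequences below are those of the deposited tables, 5′ to 3′, with the seed in capitals. The first set are pairs that share a seed and differ at 1 or 2 bases, and in several of them the ratios of the 2 members were far apart.
miR-7a-5p: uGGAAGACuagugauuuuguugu
miR-7b-5p: uGGAAGACuugugauuuuguugu
miR-19b-3p: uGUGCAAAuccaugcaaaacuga
miR-19a-3p: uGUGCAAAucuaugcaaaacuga
miR-10a-5p: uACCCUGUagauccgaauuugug
miR-10b-5p: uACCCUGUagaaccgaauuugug
miR-196a-5p: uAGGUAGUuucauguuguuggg
miR-196b-5p: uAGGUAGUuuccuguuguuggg
miR-291a-5p: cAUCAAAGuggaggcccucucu
miR-291b-5p: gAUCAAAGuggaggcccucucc
Counting from 1 at the 5′ end, with the first member's base written first, miR-7b-5p differs from miR-7a-5p by A10U and miR-19a-3p from miR-19b-3p by C11U. The Hox pairs differ by U12A (miR-10a-5p to miR-10b-5p) and A12C (miR-196a-5p to miR-196b-5p). MiR-291b-5p differs from miR-291a-5p by C1G and U22C.

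The second set are arms of the same hairpin whose levels moved apart, from the miR-290 cluster and from the Gtl2-Rian-Mirg region.
miR-294-5p: aCUCAAAAuggaggcccuaucu
miR-294-3p: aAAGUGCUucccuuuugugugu
miR-292-5p: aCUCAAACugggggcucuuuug
miR-292-3p: aAAGUGCCgccagguuuugagugu
miR-541-5p: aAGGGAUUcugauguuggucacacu
miR-541-3p: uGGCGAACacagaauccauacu
miR-136-5p: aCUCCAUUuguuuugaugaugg
miR-136-3p: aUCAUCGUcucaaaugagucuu
The hairpins of miR-294 and miR-541 from RefSeq (GRCm38.p6), with both mature arms in capitals, place the arms on opposite sides of the loop.
Mir294: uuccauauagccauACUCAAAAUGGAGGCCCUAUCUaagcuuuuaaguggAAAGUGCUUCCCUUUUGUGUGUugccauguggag
Mir541: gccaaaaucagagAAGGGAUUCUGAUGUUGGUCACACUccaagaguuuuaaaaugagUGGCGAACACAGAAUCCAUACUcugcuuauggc

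The third set are abundant or widely known microRNAs among those lower in Eed-/- cells, 4 from the Gtl2-Rian-Mirg region and 5 from elsewhere.
miR-409-3p: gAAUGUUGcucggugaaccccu
miR-376b-3p: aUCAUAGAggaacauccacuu
miR-127-3p: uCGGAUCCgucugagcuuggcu
miR-381-3p: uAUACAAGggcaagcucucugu
miR-142-5p: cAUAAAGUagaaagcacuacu
miR-142-3p: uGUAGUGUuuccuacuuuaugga
miR-210-3p: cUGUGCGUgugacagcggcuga
miR-141-3p: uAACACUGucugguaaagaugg
miR-200a-3p: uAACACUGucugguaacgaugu
MiR-141-3p and miR-200a-3p share a seed and differ by A17C and G22U, written from miR-141-3p. The seeds of the first 4 differ from each other.

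The wild-type column held 23793733 microRNA counts over 1444 detected loci and the Eed-/- column 42293019 over 1589. Levels are given as counts-per-million (CPM), with the microRNA total of each column as the reference. A ratio is the log2 of CPM plus 1 in Eed-/- over CPM plus 1 in wild-type, which understates the difference of loci near 1 CPM. Folds were computed without the added 1 CPM. Their ranges in parentheses are exact 95% binomial intervals, which cover counting error only, since amplified reads without molecular identifiers are not independent molecules. For the bound of a fold against a column at 0, that count was set to a floor of 3 counts. This is 0.126 CPM in wild-type and 0.0709 CPM in Eed-/-. Ratios kept the count of 0. The miR-290 cluster made up 39.7% of counts in wild-type and 44.4% in Eed-/-, and the let-7 family 0.0469% and 0.0678%.

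Most loci were within 2-fold of wild-type, and the distribution of ratios was centred near 0. At least 2-fold higher in Eed-/- were 192 of the 1096 loci (17.5%) and at least 2-fold lower were 164 (15%), together 32.5%. The median ratio was 0.08 with quartiles of -0.56 and 0.66, and single loci ran from -5.96 to 6.16. Outside the span of the Gtl2-Rian-Mirg cluster, 190 of 992 loci were higher and 75 lower, with a median of 0.16. The split depended on scaling. When the counts were divided by the denominators of the deposited RPM values (reads per 1e6) in place of the microRNA total, 369 loci were higher and 110 lower, so that 77.0% of called loci were higher against 53.9%, and the median of all loci moved to 0.52. MicroRNA counts were 9.66% of that denominator in wild-type and 15.8% in Eed-/-.

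**Figure D1:**
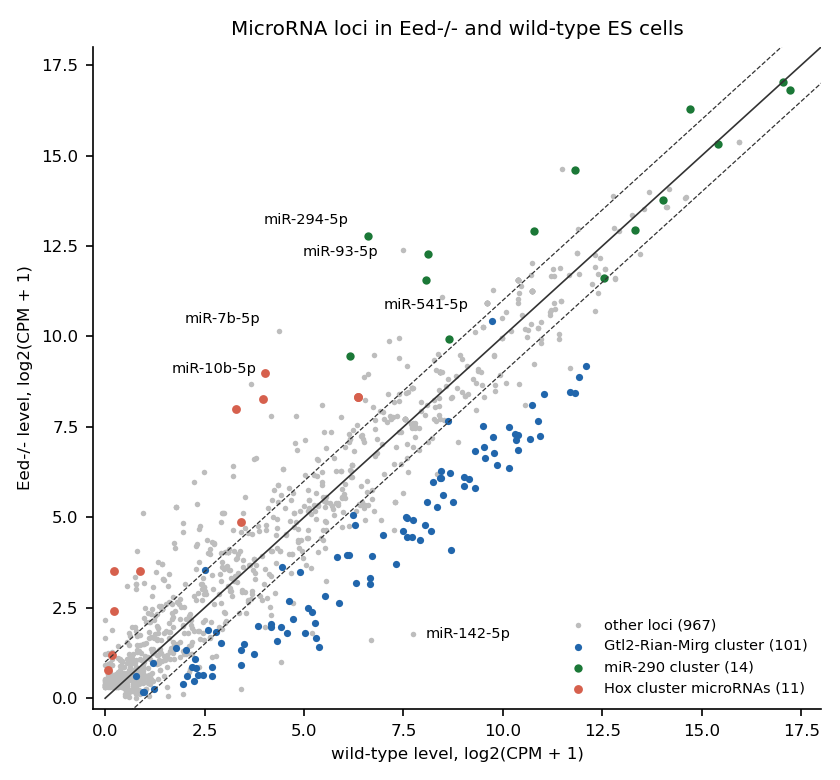
Level of each tested locus in wild-type (x axis) and Eed-/- cells (y axis), both as log2(CPM + 1), with the line of equal level and dashed lines at 2-fold. Of the Gtl2-Rian-Mirg loci (blue, 101) 88 lie below the lower dashed line, 10 of the Hox loci (red, 11) and 8 of the miR-290 cluster (green, 14) lie above the upper one, and most of the 967 other loci (grey) lie between them. The 3 minus-strand loci of the Gtl2-Rian-Mirg span are not drawn.

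The share of called loci varied with abundance. Outside the span and counted once per mature name, 7 of 256 microRNAs under 1 CPM were higher and 1 was lower. Between 10 and 100 CPM, 48 of 192 were higher and 31 lower. Above 1000 CPM, 17 of 79 were higher and 9 lower. At the edge of the filter, the 20 loci whose higher count was exactly 10 had ratios of at most 0.44 in size, and the 33 loci at 9 counts, which were not tested, at most 0.40. At the edge of the call, 29 loci had a ratio of 1 to 1.05 in size and 14 one of 0.95 to 1. Of the 939 loci that were not tested, 365 had 0 counts in both columns.

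The most abundant microRNAs were largely the same in both genotypes. Of the 15 highest in each column 12 were shared, led by miR-294-3p and miR-293-3p. MiR-294-3p had 3636291 counts in wild-type and 4881816 in Eed-/- (152826 and 115428 CPM), a ratio of -0.40. MiR-293-3p had 3210543 and 5658102 (134932 and 133783 CPM), a ratio of -0.01. Entering the first 15 in Eed-/- were miR-19a-3p, from rank 38 to 6, miR-292-5p, from 34 to 7, and miR-21a-5p, from 18 to 10. MiR-34a-5p fell from rank 12 to 25 and miR-409-3p, the most abundant Gtl2-Rian-Mirg member in wild-type, from 28 to 95.

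Loss of Eed went with lower microRNA levels along the whole Gtl2-Rian-Mirg locus. The cluster was taken as the plus-strand loci from miR-770 to miR-3072 (chr12:110801920-110986159, mm9), 109 loci of which 101 were tested. Of these, 88 were at least 2-fold lower against 15% of all loci, 1 was higher and 12 were neither, and 99 lay below wild-type. Their median ratio was -2.60 (quartiles -3.13 and -1.82). The summed level was 6.47-fold lower (6.45 to 6.50), from 1142250 to 313626 counts, or from 4.80% to 0.742% of microRNA counts. Of the 313626 counts in Eed-/-, 58095 belonged to miR-541-5p, an arm that was not lower. Without the added 1 CPM the median member was 7.28-fold lower (quartiles 5.05 and 9.45) and 93 of the 101 were at least 2-fold lower. The whole decrease was 3.95-fold with the deposited denominators.

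The 4 transcript regions of the locus differed little in size of decrease. The 12 microRNAs near Gtl2 (Meg3), miR-770 to miR-665, were 7.69-fold lower in sum (7.60 to 7.78), 11 of them by at least 2-fold. MiR-665-3p, their most abundant member, had 91052 counts in wild-type and 19803 in Eed-/-, and was 8.17-fold lower (8.05 to 8.30). The 10 tested microRNAs antisense to the retrotransposon-like gene Rtl1, miR-431 to miR-136, were 7.14-fold lower (7.06 to 7.23). Among these miR-127-3p fell from 46523 to 6436 counts and miR-433-3p from 12440 to 2911. The 5 in Rian, miR-341 to miR-370, were 6.46-fold lower (6.23 to 6.71), with miR-341-3p at 3766 and 509 counts and miR-370-3p at 8108 and 2856. The 71 in Mirg, miR-379 to miR-3072, were 6.20-fold lower (6.18 to 6.23), with 63 at least 2-fold lower. Arms that were not called lower weigh on 2 of these sums. In Eed-/-, miR-541-5p held 58095 of the 241893 counts of Mirg, and miR-136-5p 8574 of the 32494 counts of the Rtl1 part.

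Members with higher wild-type levels had somewhat larger folds. The wild-type level sets the class and also enters the fold, so an error in it moves both the same way. Whether the order goes beyond this was not tested. The median fold without the added 1 CPM was 6.14 for the 23 members under 10 CPM in wild-type, 7.05 for 27 members at 10 to 100 CPM, 7.43 for 36 at 100 to 1000 CPM and 9.21 for 15 above 1000 CPM. The last 15 were all at least 2-fold lower, with folds from 6.14 to 13.9. They include miR-376b-3p, which went from 85950 to 14604 counts, and miR-154-3p, which went from 78956 to 14858 and was 9.45-fold lower (9.28 to 9.61). In the same class miR-494-3p, at 49501 and 14330 counts, had the smallest fold, 6.14 (6.03 to 6.26). The miR-376 paralogs, all in the Mirg part, were 6.20-fold (miR-376c-3p), 10.5-fold (miR-376b-3p) and 13.9-fold lower (miR-376a-3p).

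The lowest ratios of the cluster belonged to both arms of 1 hairpin, miR-381. MiR-381-3p had 9856 counts in wild-type and 682 in Eed-/-, a ratio of -4.60, and miR-381-5p had 963 and 70, a ratio of -3.97. Next were miR-376a-3p at -3.79, miR-127-3p at -3.67 and miR-485-5p at -3.63. MiR-300-3p lies next to miR-381 in the genome and had a ratio of -3.08.

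Of the 101 members 13 were not called lower, and among them are arms whose partner on the same hairpin was. MiR-541-5p had 20219 counts in wild-type and 58095 in Eed-/- (850 and 1374 CPM), a ratio of 0.69, while miR-541-3p had 4581 and 892, a ratio of -3.13. MiR-666-5p, the only member at least 2-fold higher, had 111 and 450 counts while miR-666-3p had 30209 and 6637, ratios of 1.04 and -3.01. MiR-136-5p had 9380 and 8574 counts and miR-136-3p 10225 and 1789, ratios of -0.96 and -3.31. MiR-667-5p had 499 and 481 counts and miR-667-3p 4560 and 1300, ratios of -0.83 and -2.60. In the Ezh2-/- column, which shares the wild-type column as its reference, miR-541-5p stood at -8.95 and miR-541-3p at -7.39, and in Jarid2-/- at -2.11 and -3.58. MiR-1197-5p at -0.17, miR-493-3p at -0.23 and miR-412-5p at -0.39 had at most 69 counts in either column.

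**Figure D2:**
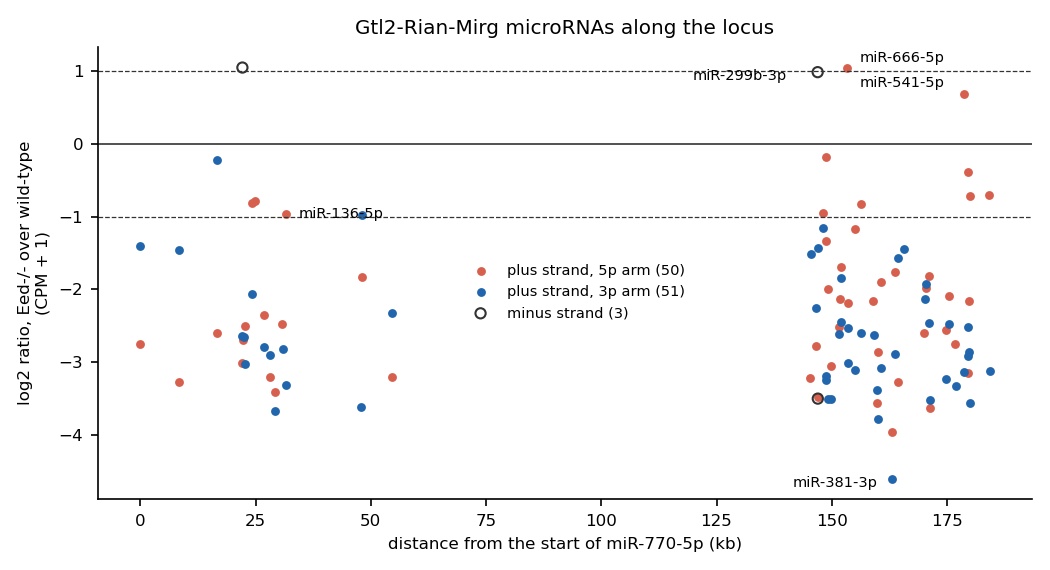
Log2 ratio of CPM + 1 in Eed-/- over wild-type for each tested locus of the Gtl2-Rian-Mirg span, by its distance in kb from the start of miR-770-5p. Red points are 5p arms, blue points 3p arms and open circles the minus strand. Most plus-strand points lie between -1 and -4 along the locus, with miR-541-5p and miR-666-5p above 0.

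The minus strand of the span carries 6 loci, of which 3 were tested. MiR-299b-5p had 13665 counts in wild-type and 2107 in Eed-/-, a ratio of -3.50. Its sequence is contained in that of miR-299a-5p on the plus strand, starting 1 base later, and miR-299a-5p had 14869 and 2335 counts, a ratio of -3.48. Reads of these 2 loci cannot be told apart by sequence. MiR-299b-3p had 81 and 327 counts, a ratio of 0.99, and miR-3544-5p had 1 and 49 counts, a ratio of 1.05.

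MicroRNAs of the Hox gene clusters were higher in Eed-/- cells. These genes, which pattern the body axis, are well-known PRC2 targets. Of 11 tested loci 10 were at least 2-fold higher, against 17.5% of all loci, and none was lower. The median ratio was 2.18 and the summed level went from 211 to 1767 CPM, 8.36-fold higher (8.13 to 8.61). MiR-10b-5p, in the Hoxd cluster (chr2:74564131-74564153), had 361 and 21285 counts, a ratio of 4.96. MiR-10a-5p, in the Hoxb cluster (chr11:96178500-96178522), had 208 and 10816, a ratio of 4.72. These 2 sequences differ at 1 base and their ratios were close to each other. MiR-196b-5p, in the Hoxa cluster (chr6:52180128-52180149), had 346 and 13047 counts, a ratio of 4.32, and miR-196a-5p, with loci in 2 Hox clusters, had 1923 and 13596, a ratio of 1.98. The passenger arms moved the same way: miR-196b-3p had 4 and 442 counts, 62.2-fold higher (24.1 to 229), and miR-10b-3p had 4 and 181, 25.5-fold higher (9.77 to 94.4). MiR-615-3p, from an intron of Hoxc5, had 20 and 444 counts, a ratio of 2.64, and miR-615-5p, the member that was not called, had 1 and 30.

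The Hox microRNAs stood differently in the other mutants. MiR-10b-5p had ratios of 0.22 in Ezh2-/- and -0.31 in Jarid2-/-, and miR-10a-5p -0.08 and -0.25. MiR-196b-5p was at 0.24 and -2.26 and miR-196a-5p at 0.00 and -4.61. All 3 comparisons use the same wild-type column and none has replicates, so these differences were not tested.

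Among the ES cell clusters, the miR-290 cluster changed mainly in its 5p arms. This cluster (chr7, miR-290 to miR-295) is transcribed in the early embryo and ES cells, and its 3p arms, most with seeds that begin with AAGUGC, promote the rapid ES cell cycle. Of 14 tested loci 8 were higher (57.1%, against 17.5% of all loci) and 0 lower, with a median of 1.44, while the summed level was only 1.12-fold higher. The 7 members on the 5p side had a median of 2.79 with 5 higher and the 7 on the 3p side a median of -0.01 with 3 higher. MiR-294-5p (chr7:3220656-3220677) went from 2297 to 294687 counts, 72.2-fold higher (69.3 to 75.2), and made up 0.0631% of the hairpin's counts in wild-type and 5.69% in Eed-/-. MiR-292-5p went from 85237 to 1047738 counts, 6.92-fold higher (6.87 to 6.96), and miR-295-5p from 1659 to 29868, 10.1-fold higher (9.64 to 10.6). Among the 3p arms miR-292-3p went from 636924 to 3390150 counts, a ratio of 1.58, and miR-291b-3p from 6390 to 127432, a ratio of 3.48. MiR-293-5p, with 142296 and 133835 counts, had the lowest ratio of the cluster, -0.92. When arms were summed per hairpin the median of the cluster was -0.041.

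The 5p arms of this cluster did not move alike in the 3 mutants. In the order Eed-/-, Ezh2-/-, Jarid2-/-, the ratios were 6.16, -2.40 and 5.29 for miR-294-5p and 3.32, -0.55 and 4.95 for miR-295-5p. MiR-292-5p was at 2.79, -2.85 and 2.64. MiR-291a-5p stood at 2.13, -0.70 and 1.90, and miR-291b-5p, above wild-type in all 3 mutants, at 4.16, 2.07 and 2.98. MiR-290a-5p was at -0.10, 0.25 and 0.18, and miR-293-5p at -0.92, 0.07 and -0.93. Of the 7 arms, 4 were thus above wild-type in Eed-/- and Jarid2-/- and below it in Ezh2-/-.

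The miR-302 cluster, 3 of whose 3p arms share the seed AAGUGCU with miR-294-3p and which is active in pluripotent cells of the epiblast, was 2.01-fold higher in sum (2.00 to 2.02). Of its 10 members 5 were higher, or 50% against 17.5% of all loci, and 0 lower, with a median of 1.04. MiR-302d-3p had 90031 and 337825 counts, a ratio of 1.08, and miR-302a-3p 20390 and 105407, a ratio of 1.54. MiR-302c-3p, with 27873 and 47656 counts, had a ratio of -0.06. The largest ratio was that of miR-302d-5p, 3.02, from 635 and 9462 counts.

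The miR-17 family clusters, which promote proliferation, had 7 of 30 loci higher (23.3%) and 4 lower (13.3%), near the 17.5% and 15% of all loci, with a median of -0.17 (0.54 with the deposited denominators), and their sum was 0.858 of wild-type (0.857 to 0.859). The 12 loci of the miR-17-92 cluster on chromosome 14 had 4 higher and 0 lower with a median of 0.23. The 12 of the miR-106a-363 cluster on chromosome X had 2 higher and 4 lower with a median of -0.81. In the miR-106b-25 cluster on chromosome 5, 1 of 6 was higher. This one was miR-93-5p (chr5:138606802-138606824), with 4239 and 227071 counts, 30.1-fold higher (29.2 to 31.1), while miR-93-3p had 3406 and 9333. MiR-19a-3p had 68691 and 1067472 counts, 8.74-fold higher (8.68 to 8.81), and miR-19b-3p, its near-identical partner and the third most abundant microRNA of wild-type cells, had 1480800 and 1790253, a ratio of -0.56. MiR-17-5p itself had 436960 and 729217 counts, a ratio of -0.09, and miR-17-3p 3342 and 39567, a ratio of 2.73. MiR-106a-3p, at 7682 and 3076 counts and a ratio of -2.14, was the lowest of the list.

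Several large genomic clusters had positive medians without a single lower locus. The Sfmbt2 intronic cluster on chromosome 2, an imprinted microRNA cluster active in trophoblast, had 63 of 128 tested loci higher (49.2%, against 17.5% of all loci) and a median of 0.90, and its sum went from 61884 to 115820 CPM, 1.87-fold higher. The 128 loci carry 63 names, and several names share counts, such as miR-466b-3p, miR-466c-3p and miR-466e-3p with 40530 and 103468 counts each, so the loci are not independent. Higher loci were 52 of 66 on the 5p side and 11 of 62 on the 3p side. MiR-467a-5p had 18577 and 82769 counts, a ratio of 1.32, and miR-669a-5p 31858 and 127242, a ratio of 1.17. MiR-466o-3p had 278 and 17398 counts, a ratio of 5.02, and differs from the far more abundant miR-466b-3p at 1 base. Ratios of miR-466b-3p in Eed-/-, Ezh2-/- and Jarid2-/- cells were 0.52, -1.73 and 1.22.

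The X-linked cluster from miR-743a to miR-465a, known from testis, had low levels in both columns. Its sum went from 83.9 to 171 CPM, 2.04-fold higher (1.94 to 2.14), and 31 of 34 loci lay above 0, with a median of 0.69. Only 4 were called higher (11.8%, against 17.5% of all loci), at levels where the added 1 CPM understates differences. MiR-880-3p, the most abundant, had 283 and 948 counts, a ratio of 0.86. The miR-500 to miR-532 cluster, in introns of Clcn5, had 4 of 10 higher and 0 lower with a median of 0.87, with miR-532-5p at 15062 and 47402 counts and miR-501-3p at 68 and 1168. Within the X-linked cluster from miR-322 to miR-450, 4 of 13 loci were higher and 2 lower, with a median of -0.18 (0.46 with the deposited denominators). MiR-503-5p had 304 and 4141 counts, a ratio of 2.84, and miR-351-5p 754 and 5927, a ratio of 2.11, while miR-542-5p had 1446 and 1075, a ratio of -1.23.

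The let-7 family, which builds up as cells differentiate, had 5 of 21 loci higher (23.8%, near the 17.5% of all loci), 0 lower and a median of 0.58. Its total stayed small, at 469 CPM in wild-type and 678 in Eed-/-. Let-7c-5p had 502 and 3356 counts and let-7a-5p 926 and 4058, ratios of 1.86 and 1.28. Let-7g-5p, the most abundant in wild-type, had 4120 and 3725 counts, a ratio of -0.97.

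**Figure D3:**
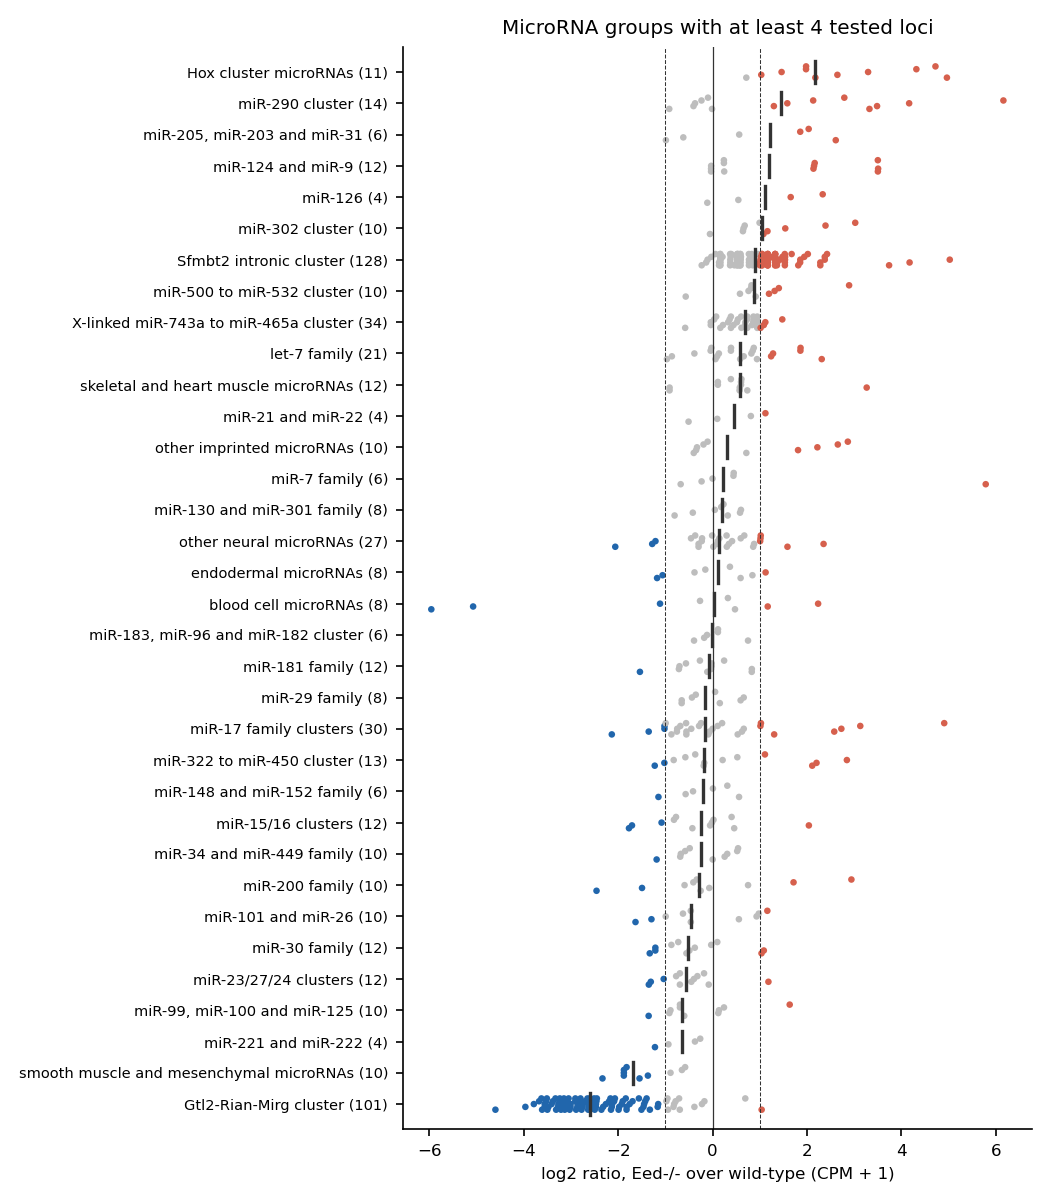
Log2 ratio of CPM + 1 in Eed-/- over wild-type for the tested loci (number in parentheses) of each microRNA list with at least 4 of them, ordered by median (black bar), with points red at 2-fold or more higher, blue at 2-fold or more lower and grey between. The Hox list has the highest median (2.18), and the smooth muscle and mesenchymal list (-1.68) and the Gtl2-Rian-Mirg cluster (-2.60) the lowest.

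The lowest ratios outside the Gtl2-Rian-Mirg span were those of miR-142, a microRNA of blood cells. Over the 4 columns (wild-type, Eed-/-, Ezh2-/-, Jarid2-/-) miR-142-5p (chr11:87570369-87570389) had 5056, 103, 4296 and 333 counts, and was 87.3-fold lower in Eed-/- (71.8 to 107). MiR-142-3p had 2423, 87, 2700 and 270 counts in the same order, and was 49.5-fold lower in Eed-/- (40.0 to 62.0). None of the other blood cell microRNAs had a decrease of this size. MiR-150-5p had 131513 and 194340 counts in wild-type and Eed-/-, a ratio of -0.27, miR-451a 1044 and 835, a ratio of -1.11, and miR-155-5p 1634 and 6576, a ratio of 1.17. Over the 8 blood cell loci 2 were higher (25%, against 17.5% of all loci) and 3 lower (37.5%, against 15%). The median of the 8 was 0.03.

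MicroRNAs of smooth muscle and mesenchyme were lower as a group. Of 10 tested loci 7 were lower, against 15% of all loci, and all 10 lay below 0, with a median of -1.68 and a sum 2.79-fold lower (2.75 to 2.83). The 10 loci carry 8 names and are not independent. The 3p arms of both miR-199a loci and of miR-199b had almost the same counts (3699 and 1756, 3700 and 1758, 3702 and 1757). MiR-145a-5p had 25674 and 17623 counts, a ratio of -1.37, and its neighbour miR-143-3p 4255 and 2109, a ratio of -1.82. MiR-199a-5p had 1099 and 354 counts, a ratio of -2.33, at its locus in the mesenchymal Dnm3os transcript on chromosome 1. At its chromosome 9 locus it had 1090 and 1025 counts, a ratio of -0.89, and was not called. Both loci carry the same mature name, so a read of the mature RNA does not tell them apart. These ratios therefore do not show a decrease limited to the Dnm3os locus, and the source of their difference was not tested. MiR-214-3p of the Dnm3os transcript had 128 and 50, a ratio of -1.55. In the skeletal and heart muscle list 1 of 12 loci was higher (8.33%, below the 17.5% of all loci) and none lower. This was miR-206-3p of skeletal muscle, with 18 and 671 counts, 21.0-fold higher (13.2 to 35.6), while miR-1a-3p had 110 and 312 and miR-133a-3p 36 and 119.

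The 2 arms of miR-210, the microRNA induced by hypoxia, were both lower. MiR-210-3p (chr7:148407306-148407327) had 78934 and 23440 counts, 5.99-fold lower (5.90 to 6.07), and miR-210-5p 2562 and 1498, 3.04-fold lower (2.85 to 3.24). Ratios of miR-210-3p in Ezh2-/- and Jarid2-/- were -3.30 and -5.31. MiR-211-5p, in an intron of Trpm1, had 2906 and 1232 counts, a ratio of -2.03, and the closely related miR-204-5p, in Trpm3, had 831 and 471, a ratio of -1.57. Both were lower still in Ezh2-/- (-4.45 and -3.26) and Jarid2-/- (-4.43 and -2.71).

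The miR-200 family, which keeps epithelial cells from mesenchymal conversion, was split by member. MiR-200a-3p had 64917 and 40913 counts, a ratio of -1.49, and miR-141-3p 35843 and 11557, a ratio of -2.46. These 2 share the seed AACACUG. Members with the seed AAUACUG were not lower by 2-fold: miR-200b-3p had 2176 and 12787 counts, a ratio of 1.71, miR-200c-3p 197 and 2969, a ratio of 2.94, and miR-429-3p 8016 and 11280, a ratio of -0.34. A pair of genomic clusters holds the family, and each contains members of both seeds. The list as a whole had 2 of 10 higher and 2 lower (20% each), near the 17.5% and 15% of all loci. Its median of -0.29 turned to 0.41 with the deposited denominators, and its sum was 2.40-fold lower (2.38 to 2.42).

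Several families that many cell types express had at most 3 loci lower each, to be read against 17.5% of all loci higher and 15% lower, and most had a median somewhat below 0. The miR-30 family had 3 of 12 loci lower and 2 higher and a sum 1.93-fold lower (1.92 to 1.94), with miR-30c-5p at 170868 and 131040 counts, a ratio of -1.21. The p53-induced miR-34a-5p had 266753 and 208460 counts, a ratio of -1.19, and the miR-34 and miR-449 list had 1 of 10 lower. In the miR-23/27/24 clusters 3 of 12 were lower and 1 higher, with miR-27a-3p at 21229 and 15204 counts and a ratio of -1.31. MiR-181c-5p, at 41629 and 25434 counts and a ratio of -1.54, was the 1 lower member of 12 in the miR-181 family. The miR-15/16 clusters had 3 of 12 lower, including miR-15a-5p (32228 and 17512 counts, ratio -1.71) and miR-497-5p (11041 and 5720, ratio -1.77), and 1 higher. MiR-148a-3p, whose family pairs with the messenger RNA of Dnmt1, had 21303 and 17076 counts and a ratio of -1.15, and was the 1 of 6 that was lower. The miR-221 and miR-222 list had 1 of 4 lower, and the list of miR-99, miR-100 and miR-125 1 of 10 lower and 1 higher. No locus was called among the 8 of the miR-29 family, the 8 of the miR-130 and miR-301 family or the 6 of the cluster of miR-183, miR-96 and miR-182. The miR-130 and miR-301 family had a median of 0.21 and a sum 1.23-fold higher, and the sum of the miR-183 cluster was 0.982 of wild-type. The miR-15/16 sum was 1.01 of wild-type. With the deposited denominators the medians of the miR-30, miR-34, miR-23/27/24, miR-15/16, miR-148, miR-99, miR-221, miR-29 and miR-181 lists turned positive, at 0.19, 0.39, 0.10, 0.35, 0.50, 0.07, 0.01, 0.49 and 0.26, so their direction depends on the scaling.

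The lists of microRNAs typical of other tissues gave mixed values, to be read against 17.5% of all loci higher and 15% lower. Among neural microRNAs, miR-9 was higher, with miR-9-5p at 58 and 1603 counts and a ratio of 3.50 and miR-9-3p at 160 and 1420 and a ratio of 2.16. MiR-124-3p, the main neuronal microRNA, had 24136 and 41997 counts, a ratio of -0.03. Over the other neural microRNAs 5 of 27 were higher and 3 lower, with miR-129-1-3p at 2.35 and miR-218-2-3p at -2.06. The miR-7 family had 1 of 6 higher, miR-7b-5p. MiR-126a-3p of endothelium had 2314 and 20876 counts, a ratio of 2.33, while miR-126a-5p of the same hairpin had 8013 and 13174, a ratio of -0.11. Among epithelial microRNAs miR-31-5p had 8441 and 91713 counts, a ratio of 2.61, and miR-203-3p 647 and 4843, a ratio of 2.03, while miR-205-5p had 36984 and 42739, a ratio of -0.62. Endodermal microRNAs had 1 of 8 higher and 2 lower, with miR-192-5p at 9830 and 13385 counts and miR-194-5p at 2169 and 1683, ratios of -0.38 and -1.18.

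Imprinted microRNAs outside the large clusters went by host gene. All 4 arms from H19 and Igf2, neighbours on chromosome 7, were higher. They were the only called members of the 10 in this list, 40% higher against 17.5% of all loci. MiR-675-3p, cut from H19, had 117 and 835 counts and miR-675-5p 23 and 345, ratios of 1.81 and 2.22. MiR-483-3p, in an intron of Igf2, had 293 and 4057 counts and miR-483-5p 68 and 983, ratios of 2.86 and 2.65. None of the 6 others, from the Gnas and Mest regions, was called, with ratios from -0.40 (miR-335-5p) to 0.71 (miR-296-5p).

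MicroRNAs known to pair with the messenger RNA of Ezh2 differed between arms and paralogs. MiR-101b-3p had 7773 and 30911 counts, a ratio of 1.16, and miR-101a-3p 11490 and 30063, a ratio of 0.56, while their 5p arms had ratios of -1.63 and -1.30. MiR-26a-5p had 66544 and 85887 counts, a ratio of -0.46, and the list had a median of -0.46 (0.25 with the deposited denominators). MiR-21a-5p, the most abundant microRNA that was higher outside the miR-290 and miR-17 family lists, had 166785 and 643779 counts, 2.17-fold higher (2.16 to 2.18), and miR-22-3p 11889 and 14833, a ratio of -0.51. The 489 tested loci in none of the lists had a median of 0.03. Of these, 46 were higher and 32 lower, smaller shares than the 17.5% and 15% of all loci. Among the unlisted loci are microRNAs with high numbers and little known function that stood at the ends of the distribution. MiR-6389 had 110 counts in wild-type and 3163 in Eed-/-, a ratio of 3.75. On the lower side miR-1190 had 482 and 42 counts, a ratio of -3.41, miR-6406 844 and 104, a ratio of -3.40, and miR-2137 229 and 8, a ratio of -3.16. MiR-6410, more abundant than these, had 3646 and 1019 counts, a ratio of -2.62.

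Loci detected in 1 genotype only were few and of low count. There were 20 loci with 0 counts in wild-type and at least 10 in Eed-/-, led by miR-6414 with 147 counts, at least 27.6-fold higher when wild-type is set to the floor of 3 counts in its column. MiR-7688-5p followed with 93 counts, at least 17.4-fold higher, miR-5129-3p with 56, at least 10.5-fold higher, and miR-1264-3p with 37, at least 6.94-fold higher. In the other direction miR-6336 had 17 counts in wild-type and 0 in Eed-/-, at least 10.1-fold lower against the floor in that column. It was the only locus with 0 counts in Eed-/- and at least 10 in wild-type. The Eed-/- column was deeper, with 42293019 counts against 23793733, so the same level gives fewer counts in wild-type. The numbers of such loci in each direction therefore cannot be compared directly, and the part of depth in them was not tested.

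Arms of the same hairpin often had different ratios. Among 269 hairpins with at least 50 counts in either column for both arms, 100 (37.2%) had arms whose ratios differed by at least 2-fold, 68 of them with the 5p arm above and 32 with the 3p arm above. The difference was at least 4-fold in 37. In 8 hairpins 1 arm was called higher and the other lower, and in 17 the more abundant arm was not the same in both genotypes. Some hairpins are copies with the same arm sequences, such as those of miR-467a. Counted once per distinct pair of arm sequences, 88 of 233 hairpins (37.8%) differed by at least 2-fold, 56 with the 5p arm above and 32 with the 3p arm above, and 15 had a changed major arm. MiR-126a changed from 77.6% (76.8 to 78.4%) of counts on the 5p arm in wild-type to 38.7% (38.2 to 39.2%) in Eed-/-, and miR-744 from 40.1% (38.5 to 41.8%) to 85.3% (84.6 to 86.0%). MiR-93 went from 55.4% (54.3 to 56.6%) to 96.1% (96.0 to 96.1%). Shares in parentheses are exact Clopper-Pearson intervals.

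**Figure D4:**
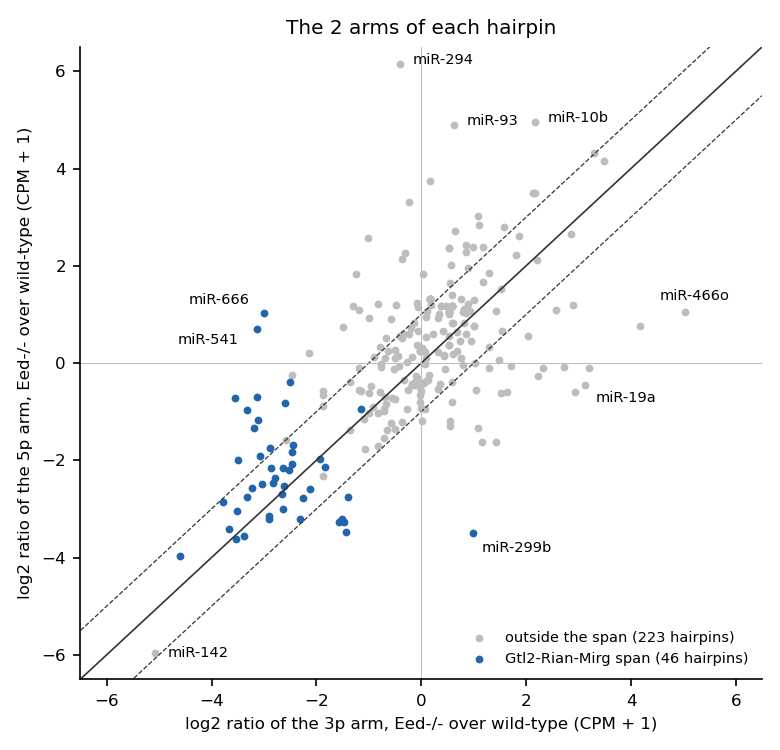
Log2 ratio (Eed-/- over wild-type, CPM + 1) of the 5p arm against that of the 3p arm for 269 hairpins with at least 50 counts on both arms, with the line of equal ratio and dashed lines at a 2-fold difference. Hairpins of the Gtl2-Rian-Mirg span (blue) lie in the lower left except miR-541, miR-666 and miR-299b, and miR-294 and miR-93 stand above the diagonal.

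The pairs of near-identical sequences give another view of the largest increases. Sequences were compared without gaps, allowing up to 2 mismatches and an offset of up to 2 bases. Of the 859 distinct tested sequences outside the span, 12.7% (10.5 to 15.1%) had a near-identical neighbour that was more abundant. The share was 24.8% (18.0 to 32.7%) among the 145 that were higher in Eed-/- and 7.25% (2.39 to 16.1%) among the 69 that were lower. Read the other way, 36 of 109 sequences with such a neighbour were higher (33.0%), against 109 of 750 without one (14.5%). Many of these 36 are miR-297, miR-466, miR-467 and miR-669 names, most of them from the Sfmbt2 cluster, where 49.2% of loci were higher. The part of that cluster in this contrast was not tested.

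In single pairs the less abundant member moved most. In the order wild-type, Eed-/-, Ezh2-/-, Jarid2-/-, miR-7b-5p (chr17:56382440-56382462) had 465, 47845, 1208 and 6699 counts. Its level was 0.528%, 22.5%, 0.791% and 16.5% of that of miR-7a-5p. MiR-7a-5p itself had 88059 counts in wild-type and 212619 in Eed-/-, a ratio of 0.44. The level of miR-19a-3p was 4.64%, 59.6%, 3.73% and 57.5% of that of miR-19b-3p. MiR-466o-3p stood at 0.686%, 16.8%, 0.807% and 21.2% of miR-466b-3p in the same order. In these 3 pairs the wild-type and Ezh2-/- columns lay close together and the Eed-/- and Jarid2-/- columns lay far above both. The miR-196 pair had 18.0%, 96.0%, 21.5% and 95%, the last from 20 counts or fewer at each locus.

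**Figure D5:**
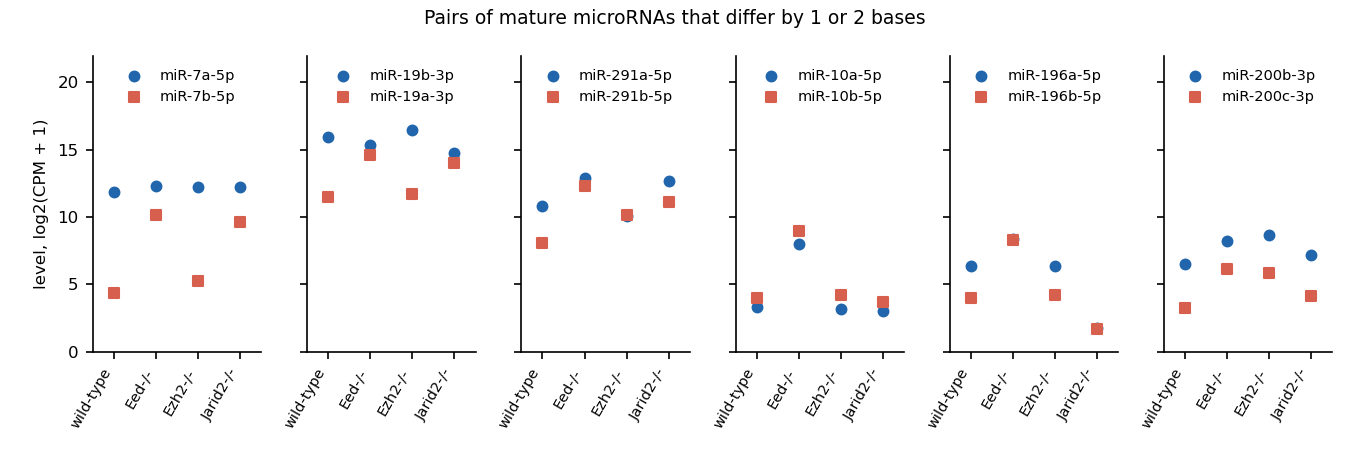
Level, log2(CPM + 1), of both members of 6 pairs of near-identical microRNAs in the 4 genotype columns, 1 value per column. In the miR-7 and miR-19 pairs the less abundant member (red) lies far below the more abundant one in wild-type and Ezh2-/-. In Eed-/- and Jarid2-/- it lies less far below, at 22.5% and 16.5% in the miR-7 pair and 59.6% and 57.5% in the miR-19 pair. Both members of the miR-10 pair are higher in Eed-/- only.

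Other pairs did not follow this pattern. MiR-10a-5p and miR-10b-5p were both higher in Eed-/- and in neither of the other mutants. MiR-200c-3p was 9.05%, 23.2%, 14.1% and 11.6% of miR-200b-3p in wild-type, Eed-/-, Ezh2-/- and Jarid2-/-. Over all 113 pairs, with the less abundant member set by the sum of both columns, that member's ratio was at least 2-fold above its partner's in 28 and at least 2-fold below in 8. How reads that match several near-identical sequences were assigned is not given in the sources used here, and the part of this in the ratios of miR-7b-5p, miR-19a-3p, miR-466o-3p and similar members was not tested.

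Few seed families had a median ratio of 2-fold or more in size. Of 36 seed families with at least 3 tested names, 7 had a median ratio of at least 1, none had one of -1 or below, and 8 had no called member. Both a higher and a lower member were found in 2 families. The highest median, 2.39, belonged to the seed CUUUAAC of 3 miR-302 5p arms, followed by 1.71 for AAUACUG of miR-200b-3p, miR-200c-3p and miR-429-3p and 1.32 for AAGUGCC of miR-290a-3p, miR-292-3p and miR-467a-5p. The let-7 seed GAGGUAG had 3 of 9 names higher with a median of 0.82. In the seed CUGCAGU, shared by the 3p arms of miR-17, miR-20b and miR-106a, ratios ran from -2.14 to 2.73. The miR-30 seed GUAAACA had 3 of 6 lower with a median of -0.88.

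By chromosome, counted once per name outside the span, chromosome 2 had the largest share of higher microRNAs, 38 of 118 (32.2%), with a median of 0.52. It holds the Sfmbt2 cluster. Of all loci outside the span, with copies counted separately, 19.2% were higher and 7.56% lower. Of the 859 distinct sequences there, 145 were higher and 69 lower. Chromosome 7, with the miR-290 cluster, H19 and Igf2, had 17 of 67 higher (25.4%). Chromosome X had 22 of 112 higher (19.6%), near the share over all loci outside the span, and 12 lower. Chromosome 8 had the lowest median, -0.44, with 2 of 36 higher and 5 lower.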

How the data were processed

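Small RNA of 18 to 40 nt had been sequenced on a SOLiD instrument, per the labels' protocols. Cutadapt, Bowtie and the build mm9 are named in the submitters' processing notes. The sources used here give neither versions and settings nor the treatment of reads with several matches. Per the file headers, the deposited tables hold a count of reads for every mature locus of miRBase release 20 and the same value scaled to 1e6 reads (RPM). The RPM values of the authors were used only to recover their denominators, 246316316 for wild-type and 267248746 for Eed-/-. Columns were assigned by name: the mutant columns name the gene, and the wild-type column names the CJ7 line and undifferentiated cells, which is less direct. Both groups have 2 samples in the labels, and whether a column pools them is not stated. No column was left unassigned.

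Rows of the tables were matched by position after a check that their annotation is identical. Ratios used CPM plus 1, a filter of 10 counts in either column and a 2-fold threshold. The test across replicates that was planned could not be made with 1 column per genotype, so values are descriptions. Computations used Python 3.11.15 with pandas 2.3.3 and scipy 1.17.1. Scaling alternatives used TMM factors from edgeR 4.0.16 and median-ratio size factors from DESeq2 1.42.0 under R 4.3.3. The procedure was tested on simulated counts.

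Named microRNAs were, among those with at least 50 counts in either column, the 15 highest and 15 lowest ratios outside the Gtl2-Rian-Mirg span, the 15 most abundant in each column, the 12 most abundant, 5 lowest and 5 highest of the span, the 4 most abundant of each list, the 12 hairpins with the largest difference between arms, seed families with a median of at least 1 in size and the loci at 0 in 1 column. Other named members were chosen after their values were seen. The members, lists and rules were chosen with earlier results of these data known. Of 977 tested names, 809 were found in the RefSeq table by name. Coordinates are those of the deposited tables. The alternatives were the scalings, filters of 1 and 100 counts, an added 0.1 or 10 CPM, 1 value per name, sums per hairpin, multi-copy loci left out, both strands of the span and, added after seeing the data, near-identical sequences left out and 1 hairpin per distinct pair of arm sequences. Depth sets the floors of 0.126 and 0.0709 CPM, and intervals cover counting error only.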

Additional observations from a re-analysis of the deposited data

Results flagged for a closer look

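Outside the Gtl2-Rian-Mirg span, among the microRNAs with the 15 highest and 15 lowest ratios or the 15 highest levels, 3 lay at least 4-fold from wild-type in Eed-/- cells and at least 4-fold the opposite way in another mutant. The differences between mutants were not tested, each genotype has 1 column, and the comparisons share the wild-type column. MiR-294-5p had a ratio of 6.16 in Eed-/- and -2.40 in Ezh2-/-, 8.56 apart. For miR-292-5p the ratios were 2.79 and -2.85, 5.64 apart. MiR-196b-5p had a ratio of 4.32 in Eed-/- and -2.26 in Jarid2-/-, 6.58 apart. Its relative miR-196a-5p, just short of 4-fold in Eed-/-, had 1.98 and -4.61.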

How the results depend on the processing

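No paired analysis was possible because each genotype has 1 column, although the labels number the samples of both groups. Leaving out a replicate was likewise not possible. The summed decrease of the Gtl2-Rian-Mirg cluster, 6.47-fold, was 6.07-fold with TMM, 6.42-fold with median-ratio scaling, 6.40-fold when scaled on loci outside the span and the miR-290 cluster, 6.50-fold with both strands and 3.95-fold with the deposited denominators. Its median ratio was -1.92 with those denominators and -2.09 with 10 CPM added. The number of higher loci was 369 with the deposited denominators, 105 with 10 CPM added and 83 of 625 hairpins when arms and copies were summed. Summed per hairpin, 103 were lower, including 50 of the 52 of the cluster. With 0.1 CPM added, 281 loci were higher and 223 lower. The median of the miR-290 cluster turned from 1.44 to -0.041 when summed per hairpin. Of the 35 list medians, 17 kept their sign under every alternative run and 18 changed it under at least 1. Depth limits the lowest loci: those under 1 CPM rarely reached the 2-fold threshold with 1 CPM added.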
